A study of Homo sapiens with 9 samples.

Results

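The zinc-dependent histone deacetylases were followed in DU145, an established human prostate carcinoma line with the genotype label WT, after 6 days in culture. The deposited table gives the FPKM (fragments per kilobase of transcript, scaled to library size) of 16772 genes. Named for the analysis were 10 of these genes, HDAC1, HDAC2, HDAC3, HDAC4, HDAC5, HDAC6, HDAC7, HDAC8, HDAC10 and HDAC11, taken by their symbols, and all 10 are in the table. The cells received the solvent DMSO alone, H93 at 20 µM or SAHA (vorinostat, an inhibitor of zinc-dependent deacetylases) at 500 nM, with 3 libraries a group and the solvent present in all 3 groups. The labels spell the doses 20 μm and 500 nm, read here as micromolar and nanomolar, so the compared doses differ. The series title presents H93 as directed at UHRF1, a protein that brings the maintenance DNA methyltransferase to replicated DNA. The line is a single one, and the labels do not say that libraries of a group came from separate cultures, so a p-value here reflects library-to-library spread only, possibly technical.

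Histone deacetylases remove acetyl groups from lysines of histones and other proteins, using a zinc ion in the catalytic pocket. Class I enzymes (HDAC1, HDAC2, HDAC3 and HDAC8) are mainly nuclear, and HDAC1, HDAC2 and HDAC3 work as the catalytic subunits of corepressor complexes. Class IIa enzymes (HDAC4, HDAC5 and HDAC7) have weak catalytic activity, bind MEF2 transcription factors and move between nucleus and cytoplasm when kinases phosphorylate them. Class IIb holds HDAC6, a cytoplasmic tubulin deacetylase, and HDAC10, a polyamine deacetylase, and class IV holds HDAC11, which removes long fatty acyl groups. Hydroxamates such as SAHA chelate the zinc ion, chiefly in class I enzymes and HDAC6.

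All 10 are annotated as protein-coding in GENCODE release 29 on GRCh38. The class I genes lie at chr1:32292086-32333635 (HDAC1), chr6:113933028-114011308 (HDAC2), chr5:141620876-141636870 (HDAC3) and chrX:72329516-72573199 (HDAC8). The class IIa genes lie at chr2:239048168-239401654 (HDAC4), chr17:44076746-44123702 (HDAC5) and chr12:47782722-47833132 (HDAC7). The remaining genes lie at chrX:48801377-48824982 (HDAC6), chr22:50245183-50251405 (HDAC10) and chr3:13479724-13506424 (HDAC11). The family has 1 more gene, HDAC9 of class IIa, which is in the table but not among the 10 listed. It is described separately at the end of the class IIa account, since it was added after its values were seen.

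Between 14910 and 15295 genes were above an FPKM of 0 in a library, 14910 to 14950 in DMSO, 15213 to 15295 in H93 and 15186 to 15238 in SAHA. Absolute read depth was unknown, and steps in low values put the libraries at relative depths of 0.875 to 1.0. The epithelial keratins KRT8 and KRT18 were at 653 to 737 FPKM in all libraries. Of 7 markers of leukocytes, fibroblasts and endothelium 5 were in the table and 3 of those stayed under an FPKM of 1, with PTPRC listed at 0 in DMSO. The summed level of these 5 was 2.30 to 3.10 in DMSO, 3.45 to 4.11 in H93 and 3.32 to 5.25 in SAHA, mostly from COL1A1. COL1A1 rose with both compounds (limma). Of the 4 epithelial markers KRT8 rose with both (log2 differences 0.11 and 0.08), EPCAM and CDH1 fell with both, and KRT18 did not pass. The part of these shifts, and of the gene number, in the results on deacetylases was not tested. In these bulk RNA samples fewer cells of a type and less RNA per cell cannot be told apart.

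RefSeq promoter windows on GRCh38.p14 were at hand for 10 of the 11 family genes, and HDAC5 had none. Shown 5′ to 3′ are the 250 bases upstream of the RefSeq start for 4 genes with a single window: HDAC1 and HDAC11, which rose with both compounds, HDAC10, which fell with both, and HDAC2, the closest relative of HDAC1, which did not pass the test. Capitals mark the GC box GGGCGG, a binding motif of SP1, and the CCAAT box CCAAT, a binding motif of NF-Y, on either strand, with overlapping GC boxes each counted.
HDAC1, chr1:32291833-32292082, plus strand: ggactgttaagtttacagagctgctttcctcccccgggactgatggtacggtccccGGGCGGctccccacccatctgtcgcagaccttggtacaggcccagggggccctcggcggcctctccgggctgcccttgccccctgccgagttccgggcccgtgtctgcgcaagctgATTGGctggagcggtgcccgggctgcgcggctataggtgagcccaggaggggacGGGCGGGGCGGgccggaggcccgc
HDAC11, chr3:13480056-13480305, plus strand: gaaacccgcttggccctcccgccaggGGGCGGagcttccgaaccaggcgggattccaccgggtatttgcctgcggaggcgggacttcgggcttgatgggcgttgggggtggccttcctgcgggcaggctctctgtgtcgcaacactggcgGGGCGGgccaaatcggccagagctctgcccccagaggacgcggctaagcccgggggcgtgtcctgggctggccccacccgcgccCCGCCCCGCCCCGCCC
HDAC10, chr22:50251266-50251515, minus strand: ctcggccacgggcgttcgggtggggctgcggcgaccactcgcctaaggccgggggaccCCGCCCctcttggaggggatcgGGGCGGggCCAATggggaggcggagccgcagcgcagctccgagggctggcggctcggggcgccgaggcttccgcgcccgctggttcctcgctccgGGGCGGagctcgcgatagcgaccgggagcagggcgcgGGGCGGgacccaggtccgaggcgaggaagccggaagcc
HDAC2, chr6:113971149-113971398, minus strand: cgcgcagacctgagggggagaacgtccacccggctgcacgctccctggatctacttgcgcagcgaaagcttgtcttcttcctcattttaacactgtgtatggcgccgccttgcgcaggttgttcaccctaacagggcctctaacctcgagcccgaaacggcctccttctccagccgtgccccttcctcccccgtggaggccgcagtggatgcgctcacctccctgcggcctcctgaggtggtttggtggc

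The HDAC1 window ends before the start of the GENCODE gene, the HDAC2 and HDAC11 windows lie inside the wider GENCODE span of their genes, and the HDAC10 window overlaps its gene's 5′ end. The HDAC1 window held 3 GC boxes and 1 CCAAT box, HDAC11 held 5 and 0, HDAC10 held 4 and 1, and HDAC2 held none of either. At least 1 GC box was in 42.6% of the 35116 upstream windows of the RefSeq table and a CCAAT box in 32.0%. Among the other genes with a single window, HDAC3 had 1 GC box, and HDAC7 and HDAC8 had none. All 4 printed windows were rich in CpG, with 21 CpG dinucleotides in HDAC1, 24 in HDAC11, 35 in HDAC10 and 18 in HDAC2, against a median of 11 over all windows. GC boxes were thus present in windows of genes that rose and of a gene that fell, and these letter matches are a description, not evidence of binding.

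The first question was how H93 and SAHA changed the family relative to solvent. With H93, 4 of the 10 genes rose (HDAC1, HDAC5, HDAC8 and HDAC11), 4 fell (HDAC4, HDAC6, HDAC7 and HDAC10), and HDAC2 and HDAC3 did not pass. With SAHA the counts were also 4, 4 and 2, and each gene had the same call as with H93. The share of all tested genes with the same call for both compounds was not computed. Over all genes H93 and SAHA libraries correlated at 0.9973 to 0.9976, and treated with DMSO libraries at most at 0.9919 (Pearson, log2(FPKM + 1)). Both comparisons use the same DMSO libraries. In them 34.9% of 11525 tested genes rose and 35.0% fell with H93, and 27.4% rose and 31.4% fell with SAHA, so the family's counts lie near those of all genes. The test was limma on log2(FPKM + 1) with Benjamini-Hochberg adjustment over all tested genes, and rose or fell means an adjusted p under 0.05. No member changed 2-fold, a call that 2.28% of genes met with H93 and 1.12% with SAHA. The median difference of the members on the log2(FPKM + 1) scale was 0.03 with H93 and -0.02 with SAHA, against 0.00 and -0.01 over all tested genes. The median absolute difference was 0.32 with H93 and 0.23 with SAHA, against 0.20 and 0.15.

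**Figure D1:**
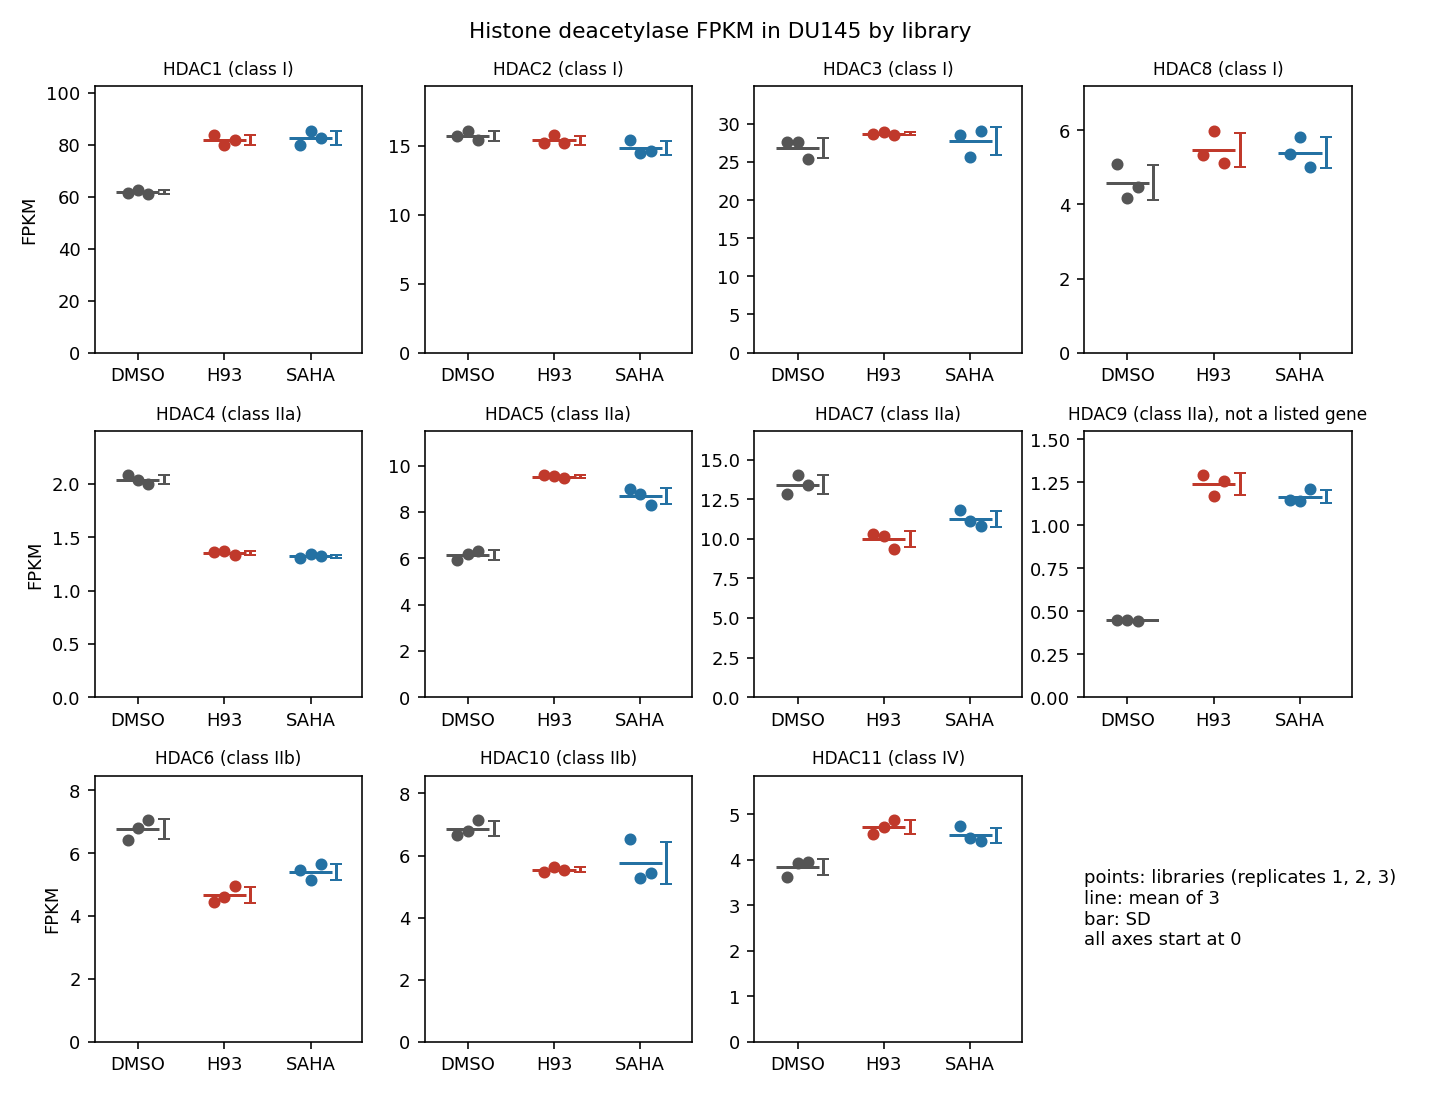
FPKM of each family gene (vertical axes, all from 0) in the 3 libraries each of DMSO, H93 and SAHA, with the mean as a line and the SD as a bar. HDAC1 sits at 61.2 to 62.7 in DMSO and at 80.0 to 85.4 in both treatments, while HDAC6 sits at 6.42 to 7.05 in DMSO and at 4.45 to 5.64 in the treatments.

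HDAC1, a catalytic subunit of the NuRD, SIN3 and CoREST corepressors, had the highest level of the family in every group. Its FPKM was 61.3, 62.7 and 61.2 in the DMSO libraries, 83.8, 80.0 and 82.0 in H93 and 80.1, 85.4 and 82.7 in SAHA. Every treated library was above every DMSO library. The mean rose from 61.7 ± 0.800 (SD, n = 3) to 82.0 ± 1.91 with H93, a gain of 32.7%, and to 82.7 ± 2.63 with SAHA, a gain of 34.0%. The log2 difference was 0.40 with H93 (SE 0.0281, limma adjusted p = 7.07e-08) and 0.42 with SAHA (SE 0.0281, limma adjusted p = 1.12e-07).

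HDAC2, the paralogue that shares the complexes of HDAC1, showed no such gain. Its FPKM was 15.7, 16.1 and 15.4 in DMSO, 15.2, 15.8 and 15.2 in H93 and 15.4, 14.5 and 14.6 in SAHA. The groups overlapped. The log2 difference was -0.03 with H93 (95% interval -0.10 to 0.05, limma adjusted p = 0.487) and -0.08 with SAHA (interval -0.16 to -0.01, limma adjusted p = 0.0611). The intervals are not adjusted for the number of genes. Leaving out SAHA replicate 1 took the SAHA value to -0.11 with a limma adjusted p of 0.0272, and a fixed FPKM sum per library gave 0.0484. The ratio of HDAC1 to HDAC2 FPKM was 3.89 to 3.99 in the DMSO libraries, 5.06 to 5.52 in H93 and 5.21 to 5.91 in SAHA, so it did not overlap between solvent and either treatment. No stretch of 50 bases in the longest HDAC1 or HDAC2 coding transcript of GENCODE release 29 occurred in a transcript of another family gene, and for HDAC1 0.434% of such stretches occurred in the pseudogene HDAC1P2.

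HDAC3, the enzyme of the NCoR corepressors, was the second highest. Its FPKM was 27.6, 27.6 and 25.4 in DMSO, 28.7, 28.9 and 28.6 in H93 and 28.5, 25.7 and 29.1 in SAHA. All H93 values were above all DMSO values, and the SAHA values overlapped with both. The log2 difference was 0.09 with H93 (limma adjusted p = 0.0762) and 0.05 with SAHA (limma adjusted p = 0.393). These values leaned on single libraries. Without DMSO replicate 3, the low value of its group, the difference was 0.06 with H93 (limma adjusted p = 0.295) and 0.01 with SAHA (0.891). Without SAHA replicate 2, the low value of its group, the limma adjusted p was 0.0262 for H93 and 0.0452 for SAHA. The SAHA difference then became 0.10. With only the 6 libraries compared, H93 also passed (limma adjusted p = 0.0319).

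HDAC8, the class I enzyme that works outside these complexes and deacetylates the cohesin subunit SMC3, was much lower. Its FPKM was 5.10, 4.17 and 4.48 in DMSO, 5.33, 5.99 and 5.11 in H93 and 5.36, 5.83 and 5.01 in SAHA. The highest DMSO value lay just under the lowest H93 value and above the lowest SAHA value. The log2 difference was 0.21 with H93 (SE 0.0714, limma adjusted p = 0.0172) and 0.20 with SAHA (SE 0.0714, limma adjusted p = 0.0308). The H93 call was lost without DMSO replicate 2 (limma adjusted p = 0.0778) or H93 replicate 2 (0.0807). The SAHA call was lost without DMSO replicate 2 (limma adjusted p = 0.126), DMSO replicate 3 (0.0796), SAHA replicate 1 (0.059) or SAHA replicate 2 (0.12), and with no filter on low values (0.0723). HDAC8 also overlaps a second annotated gene on its strand, AL133500.1, and 18.7% of the stretches of 50 bases in its longest coding transcript occurred in transcripts of other genes.

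**Figure D2:**
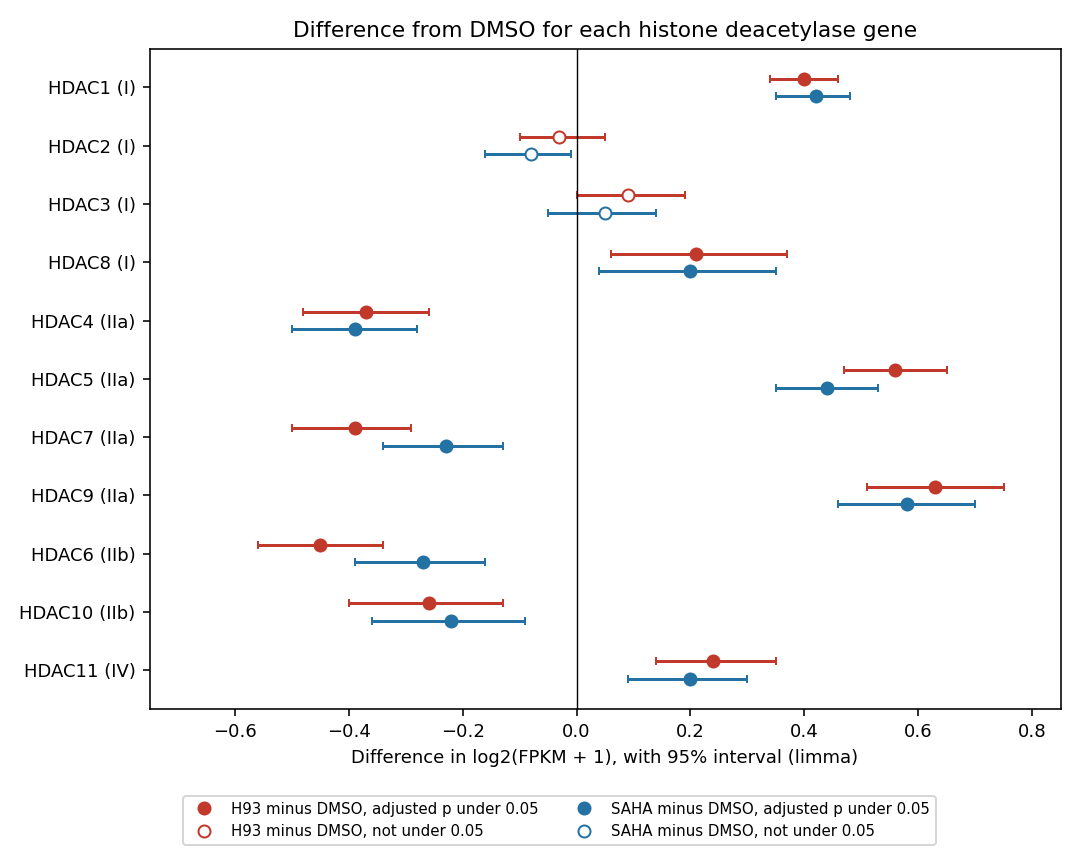
Difference from DMSO in log2(FPKM + 1) (horizontal axis) for each gene, H93 in red and SAHA in blue, with 95% intervals from limma and filled points at an adjusted p under 0.05. HDAC1, HDAC5, HDAC8, HDAC9 and HDAC11 lie right of 0, HDAC4, HDAC6, HDAC7 and HDAC10 lie left of it, and HDAC2 and HDAC3 have open points.

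The class IIa genes went in opposite directions. HDAC5, a MEF2 corepressor that kinases export from the nucleus, had FPKM of 5.91, 6.20 and 6.32 in DMSO, 9.58, 9.57 and 9.45 in H93 and 8.98, 8.77 and 8.29 in SAHA. The 3 groups did not overlap, with H93 highest. HDAC5 rose by 55.1% with H93, a log2 difference of 0.56 (SE 0.0405, limma adjusted p = 1.01e-07), the largest absolute value of the 10 genes on this scale at the pseudocount of 1. With SAHA it rose by 41.3%, a log2 difference of 0.44 (SE 0.0405, limma adjusted p = 1.76e-06).

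HDAC4, a regulator of chondrocyte and muscle gene programmes, was the lowest of the 10. Its FPKM was 2.08, 2.04 and 2.00 in DMSO, 1.36, 1.37 and 1.33 in H93 and 1.31, 1.34 and 1.32 in SAHA. All treated libraries were below all DMSO libraries, and the treated groups overlapped. HDAC4 fell by 33.6% with H93 and fell by 35.2% with SAHA. The log2 differences were -0.37 (SE 0.0492, limma adjusted p = 2.49e-05) and -0.39 (SE 0.0492, limma adjusted p = 2.62e-05). At this low FPKM the added 1 shrinks the difference, which was -0.56 with H93 and -0.59 with SAHA at a pseudocount of 0.1.

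HDAC7, known as a repressor in thymocytes and endothelium, was the most abundant class IIa gene. Its FPKM was 12.8, 14.02 and 13.4 in DMSO, 10.3, 10.2 and 9.38 in H93 and 11.8, 11.1 and 10.8 in SAHA. The 3 groups did not overlap, with DMSO highest and H93 lowest. HDAC7 fell by 25.7% with H93 (log2 difference -0.39, SE 0.0473, limma adjusted p = 9.98e-06) and by 16.1% with SAHA (log2 difference -0.23, SE 0.0473, limma adjusted p = 0.00102). The ratio of HDAC5 to HDAC7 FPKM was 0.442 to 0.471 in DMSO, 0.927 to 1.01 in H93 and 0.762 to 0.792 in SAHA. That of HDAC5 to HDAC4 was 2.85 to 3.16, 6.99 to 7.09 and 6.29 to 6.84. Both ratios were higher in every treated library than in every DMSO library. This follows from the values above, since HDAC5 rose and HDAC4 and HDAC7 fell without overlap with DMSO.

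HDAC9, the remaining class IIa gene, was at 0.448, 0.448 and 0.445 FPKM in DMSO, 1.29, 1.17 and 1.26 in H93 and 1.15, 1.14 and 1.21 in SAHA. It was the lowest of the 11 family genes in every group, and the treated libraries were all above the DMSO libraries. It met the filter on low values only through the treated groups, so its passing carries a selection. The ratio of mean FPKM to DMSO was 2.77 with H93 and 2.61 with SAHA, larger than that of any of the 10 listed genes. The log2(FPKM + 1) differences were 0.63 and 0.58, and 1.29 and 1.21 at a pseudocount of 0.1.

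HDAC6, the class IIb enzyme that deacetylates tubulin, cortactin and HSP90, fell with both compounds. Its FPKM was 6.42, 6.81 and 7.05 in DMSO, 4.45, 4.61 and 4.94 in H93 and 5.46, 5.13 and 5.64 in SAHA. The 3 groups did not overlap, with H93 lowest. HDAC6 fell by 31.0% with H93 (log2 difference -0.45, SE 0.0508, limma adjusted p = 5.31e-06) and fell by 19.9% with SAHA (log2 difference -0.27, SE 0.0508, limma adjusted p = 0.000538).

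HDAC10, which removes acetyl groups from acetylspermidine, had FPKM of 6.67, 6.79 and 7.14 in DMSO, 5.47, 5.64 and 5.52 in H93 and 6.53, 5.28 and 5.45 in SAHA. SAHA replicate 1 stood apart from the other SAHA libraries and lay just under the lowest DMSO value. HDAC10 fell by 19.2% with H93 (log2 difference -0.26, SE 0.0614, limma adjusted p = 0.00197) and by 16.2% with SAHA (log2 difference -0.22, SE 0.0614, limma adjusted p = 0.00741). HDAC10 is uncertain as a single gene: 77.6% of the stretches of 50 bases in its longest coding transcript also occurred in transcripts annotated to MAPK12, a stress-activated kinase gene on the same strand. MAPK12 was at 14.7 to 16.5 FPKM in DMSO, 9.62 to 10.5 in H93 and 11.0 to 12.4 in SAHA, and it fell with both compounds (log2 differences -0.59 and -0.40, limma). How the authors divided reads between this pair is not given in the sources used here.

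HDAC11, the single class IV enzyme, had FPKM of 3.63, 3.92 and 3.95 in DMSO, 4.57, 4.71 and 4.87 in H93 and 4.73, 4.47 and 4.42 in SAHA. All treated libraries were above all DMSO libraries. HDAC11 rose by 23.2% with H93 (log2 difference 0.24, SE 0.0472, limma adjusted p = 0.000532) and by 18.5% with SAHA (log2 difference 0.20, SE 0.0472, limma adjusted p = 0.00323). Genes on the opposite strand overlap HDAC2, HDAC3, HDAC4, HDAC5, HDAC7, HDAC9 and HDAC11 in GENCODE release 29, among them HDAC2-AS2 and HDAC11-AS1. The library kit marks strand, but whether the authors' quantification used it is not given in the sources used here.

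FPKM is per length, so the levels can be ranked across genes. The places of HDAC10 and HDAC8 are less certain, since their transcripts share sequence with other genes. In DMSO the order by mean was HDAC1, HDAC3, HDAC2, HDAC7, HDAC10, HDAC6, HDAC5, HDAC8, HDAC11, HDAC4 and HDAC9, where the neighbours HDAC10 and HDAC6 overlapped in their library values and no other neighbours did. In H93 HDAC5 was the fifth, its values overlapping those of HDAC7, and HDAC6 was the ninth, overlapping HDAC11 above it, and HDAC10 overlapped HDAC8. In SAHA HDAC5 was also the fifth, and HDAC10, HDAC6 and HDAC8 followed each other with overlapping values. The first 4 places and the last 2 were held by the same genes in the 3 groups.

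The summed FPKM of the 10 genes was 146.4 to 150.3 in DMSO, 166.4 to 168.8 in H93 and 167.3 to 168.2 in SAHA. HDAC1 made up 41.7% ± 0.0924 of that sum in DMSO, 49.0% ± 0.886 in H93 and 49.3% ± 1.68 in SAHA (SD, n = 3 each). Class I as a whole made up 73.6% ± 0.898, 78.6% ± 0.222 and 78.0% ± 0.905. The summed FPKM of the class IIa genes HDAC4, HDAC5 and HDAC7 overlapped between groups, at 20.74 to 22.27 in DMSO, 20.16 to 21.27 in H93 and 20.45 to 22.08 in SAHA. That of class IIb, which includes the less certain HDAC10, was 13.08 to 14.19, 9.92 to 10.46 and 10.41 to 11.99. So the rise of the family sum came with a higher HDAC1, while within class IIa the gain of HDAC5 and the losses of HDAC4 and HDAC7 were of similar size in FPKM. These sums are descriptions of mRNA levels and carry no test.

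**Figure D3:**
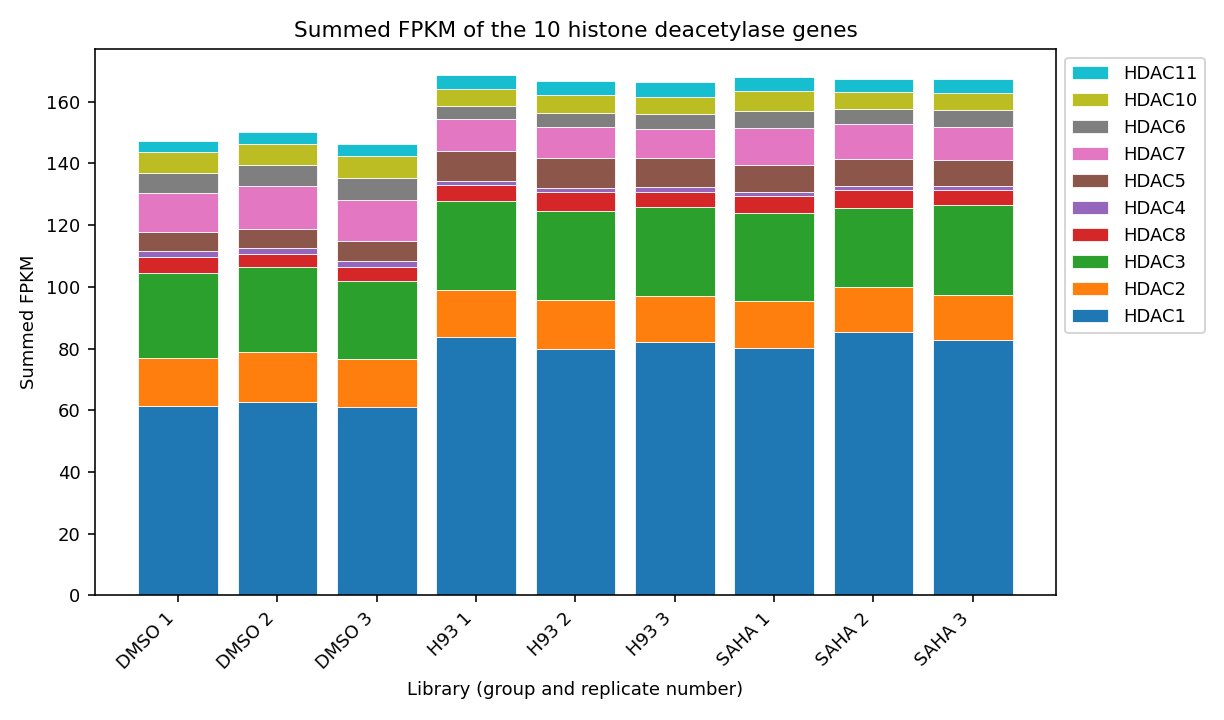
Summed FPKM of the 10 listed genes (vertical axis, from 0) in each of the 9 libraries (horizontal axis), stacked by gene. The HDAC1 segment grows from 61.2 to 62.7 FPKM in DMSO to 80.0 to 85.4 in the treated libraries, and the whole bar from at most 150.3 to at least 166.4.

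The design also sets H93 against SAHA directly, at their different doses. HDAC5 was higher with H93 (9.53 ± 0.0732 against 8.68 ± 0.353 FPKM, SD, n = 3 each), while HDAC6 (4.66 ± 0.250 against 5.41 ± 0.259) and HDAC7 (9.96 ± 0.506 against 11.2 ± 0.496) were lower. In all 3 genes the H93 libraries did not overlap with the SAHA libraries and lay farther from DMSO. These genes were picked by the test on the same values, so the separation is no further evidence. The share of all genes with such a separation was not computed. Over all genes H93 libraries correlated with DMSO libraries at 0.9869 to 0.9873 and SAHA libraries at 0.9913 to 0.9919 (Pearson, log2(FPKM + 1)). A greater distance from DMSO with H93 was thus not particular to these genes. Among all tested genes 17.6% were higher and 13.9% lower with H93, and 0.0174% met the 2-fold call, which no member did. Whether more genes were higher or lower changed with the scaling of the libraries. The log2 difference was 0.12 for HDAC5 (SE 0.0405, limma adjusted p = 0.0373), -0.18 for HDAC6 (SE 0.0508, limma adjusted p = 0.0194) and -0.16 for HDAC7 (SE 0.0473, limma adjusted p = 0.0237).

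These 3 calls were close to the threshold. That for HDAC5 was lost without any single H93 library (limma adjusted p = 0.0678 to 0.0913), without SAHA replicate 2 (0.0628) or 3 (0.133), and under median-ratio rescaling (0.0556) or quantile normalization (0.0775). HDAC6 lost it without H93 replicate 1 (limma adjusted p = 0.0726), H93 replicate 2 (0.0546) or SAHA replicate 3 (0.0711). HDAC7 lost it without H93 replicate 3 (limma adjusted p = 0.0892) or SAHA replicate 1 (0.0842), and with no filter on low values (0.0503).

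For the other 7 genes H93 and SAHA did not differ past the threshold. The 95% interval of the log2 difference, H93 minus SAHA, was -0.07 to 0.05 for HDAC1, -0.02 to 0.13 for HDAC2, -0.05 to 0.15 for HDAC3 and -0.09 to 0.13 for HDAC4. It was -0.14 to 0.17 for HDAC8, -0.17 to 0.09 for HDAC10 and -0.06 to 0.15 for HDAC11. Missing the threshold does not show that the compounds acted alike on these genes. UHRF1, the protein named in the series title, was at 51.6 ± 1.02 FPKM in DMSO, 34.2 ± 1.24 in H93 and 37.7 ± 1.08 in SAHA (SD, n = 3 each), lower in every treated library.

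The complexes and pathways in which the deacetylases work were described from lists of textbook members. Of 12 tested subunits of NuRD, the chromatin remodelling complex of HDAC1 and HDAC2, 8 fell and 2 rose with H93 and 7 fell and 2 rose with SAHA. Over all tested genes 35.0% fell and 34.9% rose with H93, and 31.4% fell and 27.4% rose with SAHA. The list's median log2 difference was -0.28 and -0.19, against 0.00 and -0.01 over all genes. CDK2AP1, a small subunit, fell from 89.7 ± 2.14 FPKM to 48.7 ± 1.24 with H93 and 55.9 ± 2.69 with SAHA. The remodeller CHD3 fell from 26.3 ± 0.474 to 16.2 ± 0.215 and 18.3 ± 0.515, and the subunits MBD3 (30.0 ± 0.696 to 21.5 ± 0.554 and 24.2 ± 0.203) and MTA3 (7.36 ± 0.0571 to 5.17 ± 0.204 and 5.79 ± 0.364) fell as well. CHD4, the alternative remodeller, and MBD2, the methyl-CpG binding alternative to MBD3, were the 2 that rose, by 0.09 and 0.23 on the log2 scale with H93 and by 0.07 and 0.22 with SAHA.

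Of 14 listed SIN3 subunits 6 rose and 0 fell with H93, with 8 not past the test, and 1 rose and 2 fell with SAHA. The all-gene shares were 34.9% rising and 35.0% falling with H93 and 27.4% and 31.4% with SAHA. The list's medians were 0.07 and -0.02, against 0.00 and -0.01 over all genes. RBBP4 and RBBP7, subunits that SIN3 shares with NuRD, were counted only under NuRD. Both fell with H93 (log2 differences -0.36 and -0.05). With SAHA RBBP4 fell (-0.29) and RBBP7 did not pass. The scaffold SIN3B was at 13.05 ± 0.402 FPKM in DMSO, rose to 15.3 ± 0.448 with H93 and was at 13.7 ± 0.568 in SAHA. SAP30, a bridging subunit, rose with both, from 6.90 ± 0.662 to 9.05 ± 0.679 and 8.80 ± 0.615. ARID4A, a retinoblastoma-binding subunit, was at 4.11 ± 0.154, 5.46 ± 0.187 and 3.89 ± 0.424, and SAP30L at 4.20 ± 0.247, 5.55 ± 0.240 and 4.48 ± 0.218. In the direct comparison 7 of 14 SIN3 subunits were higher with H93 than with SAHA and 0 lower, ARID4A, SAP30L and SIN3B among the 7, where 17.6% of all tested genes were higher and 13.9% lower. At an unadjusted limma p under 0.05 the count of the 14 listed that fell with H93, or was lower with H93 than with SAHA, was also 0. Of the 7, ING1 (limma adjusted p = 0.0381) and ARID4B (0.0305) lay closest to the threshold. Other scalings and left-out libraries were not evaluated for the lists.

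Of 10 subunits of CoREST, which joins HDAC1 and HDAC2 to the histone demethylase KDM1A, 4 rose and 5 fell with H93 and 2 rose and 4 fell with SAHA, with medians of -0.04 and -0.01. Over all tested genes 34.9% rose and 35.0% fell with H93, 27.4% rose and 31.4% fell with SAHA, and the medians were 0.00 and -0.01. The CoREST counts thus lie near those of all genes. RCOR2, a scaffold paralogue, was at 2.53 ± 0.320 FPKM in DMSO, 0.486 ± 0.0427 in H93 and 0.812 ± 0.0389 in SAHA. It met the filter on low values only through DMSO, so its call as falling carries a selection. The scaffold RCOR1 (log2 differences 0.24 and 0.18) and KDM1A (0.07 and 0.09) rose with both. The zinc finger subunit ZMYM3 fell from 11.7 ± 0.359 to 7.57 ± 0.10 and 8.87 ± 0.303. ZMYM2 and GSE1 also fell with both.

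All 6 NCoR genes passed with each compound, 4 falling and 2 rising, with medians of -0.21 and -0.17, in comparisons where 35.0% of all tested genes fell and 34.9% rose with H93 and 31.4% and 27.4% with SAHA (medians 0.00 and -0.01). The scaffold subunits TBL1X (13.5 ± 0.151 FPKM to 8.20 ± 0.431 with H93 and 9.60 ± 0.370 with SAHA) and TBL1XR1 (17.4 ± 0.154 to 12.7 ± 0.261 and 13.98 ± 0.308) fell. GPS2, a small subunit, rose from 59.3 ± 1.67 to 72.4 ± 0.369 and 63.2 ± 0.972. The 3 genes of MiDAC, the mitotic deacetylase complex, split alike with both compounds: DNTTIP1 rose from 47.2 ± 2.82 to 62.3 ± 2.20 and 64.2 ± 2.50, and MIDEAS and TRERF1 fell.

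**Figure D4:**
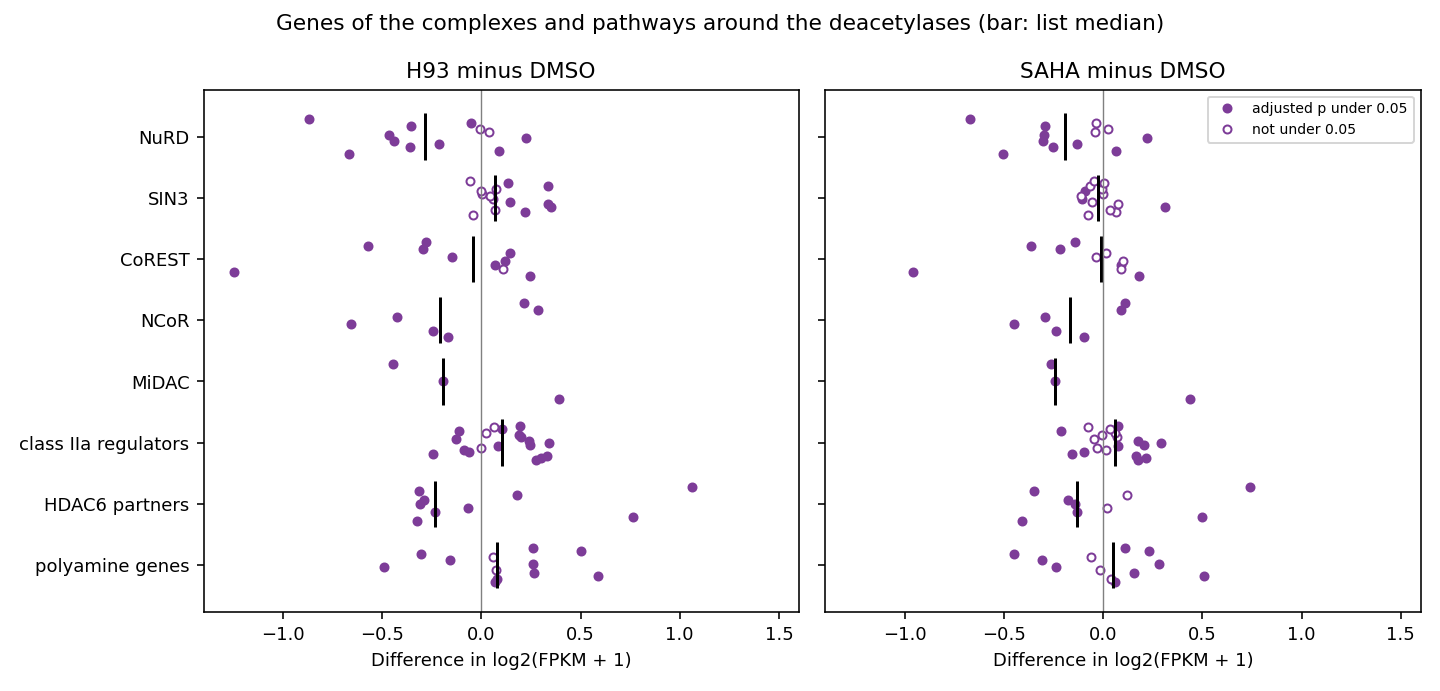
Difference from DMSO in log2(FPKM + 1) (horizontal axes) of each tested gene in 8 lists, for H93 on the left and SAHA on the right, filled at a limma adjusted p under 0.05, with a bar at the list median. The NuRD bar lies at -0.28 and -0.19 and the bar of the class IIa regulators at 0.10 and 0.06.

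Of 19 tested genes that act with class IIa enzymes (MEF2 factors, kinases and YWHA adaptor proteins), 11 rose and 5 fell with H93 and 8 rose and 3 fell with SAHA, with medians of 0.10 and 0.06. The shares of all tested genes were 34.9% rising and 35.0% falling with H93 and 27.4% and 31.4% with SAHA, with medians of 0.00 and -0.01. The transcription factor MEF2D rose from 18.2 ± 0.307 FPKM to 22.6 ± 0.619 with H93 and 21.3 ± 1.10 with SAHA, and MEF2A from 3.76 ± 0.0824 to 4.75 ± 0.122 and 4.37 ± 0.0692. The calcium-dependent kinase CAMK1 rose from 22.5 ± 0.873 to 28.8 ± 1.15 and 27.8 ± 0.721. YWHAB, an adaptor that holds phosphorylated class IIa enzymes in the cytoplasm, rose from 116 ± 1.80 to 146 ± 1.26 and 130.2 ± 2.12. The adaptors YWHAE (log2 differences -0.25 and -0.16) and YWHAG (-0.06 and -0.10) fell with both compounds.

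All 9 listed substrates, partners and counteracting enzymes of HDAC6 passed with H93, 3 rising and 6 falling. With SAHA 2 rose and 5 fell. The medians were -0.24 and -0.13, against 0.00 and -0.01 over all tested genes, of which 34.9% rose and 35.0% fell with H93 and 27.4% and 31.4% with SAHA. SIRT2, the other tubulin deacetylase, rose from 10.1 ± 0.938 FPKM to 17.9 ± 1.03 with H93 and 14.7 ± 0.859 with SAHA, and ATAT1, the tubulin acetyltransferase, fell from 5.32 ± 0.289 to 4.06 ± 0.333 and 3.78 ± 0.659. CYLD, a deubiquitinase that binds HDAC6, rose from 4.38 ± 0.310 to 10.2 ± 0.0477 and 7.97 ± 0.276, the only gene of the 8 lists whose log2 difference rose past 1, and only with H93. SQSTM1, an autophagy receptor that binds HDAC6, fell from 150.1 ± 2.12 to 120.4 ± 1.59 and 118 ± 3.49.

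Of 12 tested genes of polyamine metabolism, the pathway of HDAC10, 7 rose and 3 fell with H93 and 6 rose and 3 fell with SAHA, with medians of 0.08 and 0.05, beside 34.9% of all tested genes rising and 35.0% falling with H93, 27.4% and 31.4% with SAHA, and medians of 0.00 and -0.01. OAZ2, an antizyme that restrains ornithine decarboxylase, rose from 61.5 ± 1.50 FPKM to 92.9 ± 2.80 with H93 and 87.8 ± 2.08 with SAHA. The lysosomal polyamine exporter ATP13A2 rose from 16.5 ± 0.204 to 23.8 ± 0.285 and 19.5 ± 1.36. Spermidine synthase SRM fell from 67.6 ± 1.21 to 47.9 ± 1.80 and 57.2 ± 3.37, and spermine oxidase SMOX from 48.6 ± 0.701 to 39.3 ± 1.90 and 35.3 ± 2.16.

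HDAC5 and HDAC6 had the largest absolute log2 differences among the 10 with H93 at a pseudocount of 1. With SAHA, HDAC1 (0.42) and HDAC4 (-0.39) exceeded HDAC6 (-0.27), and at a pseudocount of 0.1 HDAC4 (-0.56 with H93) exceeded HDAC6 (-0.53). For HDAC5 and HDAC6 the tested genes with the most similar pattern were found by the root mean square difference of centred log2(FPKM + 1) over the 9 libraries. For HDAC5 the 5 nearest were IFT46 (0.0188), XPNPEP1 (0.0305), LAMB2 (0.0308), BCL10 (0.0314) and HABP4 (0.0328). For HDAC6 they were GAPDH (0.0308), UBL4A (0.0362), MBD3 (0.0366), MCM2 (0.0367) and DAG1 (0.0380). GAPDH, a glycolytic enzyme often used as a reference gene, was the nearest to HDAC6. Its FPKM fell with both compounds, by 0.44 with H93 and by 0.26 with SAHA on the log2 scale (limma). GAPDH was picked by its pattern in these same libraries, so its fall is no further evidence.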

How the data were processed

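RNA sequencing libraries of DU145 cells (3 groups of 3) came from TRIzol RNA and a stranded mRNA kit, per the labels' protocols. What the authors deposited is a single FPKM table, genes by libraries. Cufflinks, HISAT2, Trimmomatic 0.36 and the build GRCh38.p13 appear, without roles, in the submitters' processing notes. Annotation and strand use: not given in the sources used here. Absolute depth is unknown, so no counting interval was computed; relative depth is the modal ratio between libraries of FPKM values below 0.1. The members and lists were chosen with earlier results of these data known.

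Kept were the 11525 genes, all 10 members included, that reached an FPKM of 1 in 3 or more of the 9 libraries. They were fitted as log2(FPKM + 1) with limma 3.58.1 in R 4.3.3, with 1 mean per group over the 9 libraries and trended empirical Bayes variances; p-values are two-sided and Benjamini-Hochberg adjusted within each comparison over the kept genes. The procedure was tested on simulated data. The smallest p of an exact permutation test here is 0.1, so none was run. Named were all members, up to 4 genes of each list with the largest difference from DMSO among those passing, the 5 nearest patterns of 2 members, markers and UHRF1; other genes, HDAC9 and MAPK12 among them, were named after their values were seen. Replicate numbers showed no sign of pairing the libraries. Alternatives covered pseudocount, filter, scaling, moderation, fitted libraries, a replicate block and leaving out each library. They were not evaluated for the lists. Positions and transcripts came from GENCODE release 29 (GRCh38), promoters from RefSeq on GRCh38.p14. Tables were made in Python 3.11.15. Some genes of the lists are not reported here.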

Additional observations from a re-analysis of the deposited data

How the results depend on the processing

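Each of the 8 members that changed with H93 or SAHA kept its direction from DMSO under all alternatives run, and all but HDAC8 kept the call, as far as they met the filter. Against SAHA, H93 had 3 members past the threshold, 1 higher and 2 lower. Leaving out a library gave 1 to 3 members called, 0 to 1 higher and 1 to 2 lower. The 1 higher gene (HDAC5) became 0 under median-ratio rescaling, 0 under quantile normalization and 0 with the replicate block, and the 2 lower became 1 with no filter on low values; the cause was not tested. Differences near 0 between H93 and SAHA changed sign: HDAC1 (-0.01) to 0.00 with a fixed sum per library, 0.00 without H93 replicate 2 and 0.01 without SAHA replicate 2; HDAC3 (0.05) to -0.00 without SAHA replicate 2; HDAC8 (0.02) to -0.01 under quantile normalization, -0.04 without H93 replicate 2 and -0.03 without SAHA replicate 3; HDAC10 (-0.04) to 0.04 without SAHA replicate 1. Over all left-out libraries these 4 differences ranged from -0.04 to 0.01 (HDAC1), -0.00 to 0.08 (HDAC3), -0.04 to 0.06 (HDAC8) and -0.09 to 0.04 (HDAC10). The HDAC1 share in DMSO moved from 41.7% to 41.9% under quantile normalization. HDAC4, HDAC9 and HDAC11 did not meet the filter of a mean FPKM of at least 5. Same-numbered libraries of different groups correlated at -0.098 to 0.036 in their deviations from the group means, and differently numbered ones at -0.05 to 0.07. Most libraries correlated best with a library of another number. No pairing by number was thus seen, which does not show that the libraries were handled unmatched. With the replicate block the members called between H93 and SAHA went from 3 to 2, HDAC5 losing its call (limma adjusted p = 0.0606), and the call of no other member changed. No scaling moved the median of all genes by over 0.1. Unknown depth limits what can be said of HDAC4 and HDAC9, the lowest genes.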
